A study of Mus musculus with 6 samples.

Results

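The regulatory elements of Meis1 and Pbx3 beyond their promoters were examined for changes in chromatin accessibility in LSCs treated with MMF. The members were all ATAC-seq peak regions overlapping either gene body or the 150 kb on either side of it (mm10, GENCODE M21), and 65 of the 112852 regions of the 6 peak lists met this rule. Of these, 35 lay at Meis1, on chromosome 11 from 18879817 to 19018985, and 30 at Pbx3, on chromosome 2 from 34171457 to 34373142, both genes on the minus strand. Promoter regions were those within 1000 bp of the start of a protein-coding transcript, which left 33 elements at Meis1 and 28 at Pbx3. ATAC-seq records open chromatin through the insertion of adapters by the Tn5 transposase, here in 3 control and 3 MMF-treated samples of L-GMPs, the leukemic granulocyte-macrophage progenitors that serve as LSCs of the murine MLL-AF9 leukemia. All groups carried the MLL-AF9 leukemia and are labelled WT beyond it, were kept in medium with IL3, and differed in MMF, given for 24 h by the labels (the methods and a figure legend of the study differ on dose and time). The model rests on 1 fusion oncogene in cultured and sorted cells, and the labels do not tie samples to mice or cultures, so that p-values measure the spread between these samples, which may be technical. A bulk assay cannot tell fewer cells with an open site from less access per cell.

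Meis1 and Pbx3 encode homeodomain proteins of the TALE class. MEIS and PBX proteins bind DNA together with HOX proteins, and in MLL-rearranged leukemia the fusion protein, held on chromatin through menin and LEDGF, keeps Hoxa9, Meis1 and Pbx3 active. Genes of this kind are known to use enhancers in their introns and flanks as well as promoters. MMF blocks inosine monophosphate dehydrogenase and thereby guanine nucleotide synthesis.

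Elements are named by the distance of their summit from the gene start, positive in the direction of transcription. The 200 bp around the summits of 8 elements are printed from GRCm38 because the results below turn on them. The first pair are the strongest intronic Meis1 elements, in introns 8 and 7, the next lies just upstream of the Meis1 promoter, and the fourth is the Meis1 element with the largest fall. Then follow both Meis1 elements that rose, the Pbx3 element that rose and the Pbx3 element gained with MMF. Capitals mark matches, on either strand, to GAGGAAGT for PU.1, TTGCNNAA for C/EBP, AACCACA for RUNX, AGATAAG for GATA factors, TGACAG for MEIS, TGATTTAT for PBX with HOX, TGANTCA for AP-1, CCGGAAGT for ETS, CCAATCA for NF-Y, CCNCNCCC for KLF, the CTCF consensus by name, or CCAAT, the core of the NF-Y motif, a search added after the sequences had been read.
Meis1 +93.9 kb (chr11:18925025-18925224, plus strand): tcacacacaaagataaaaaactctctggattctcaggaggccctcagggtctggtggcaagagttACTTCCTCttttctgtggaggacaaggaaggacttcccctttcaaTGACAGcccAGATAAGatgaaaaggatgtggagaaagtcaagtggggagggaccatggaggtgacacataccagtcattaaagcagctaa
Meis1 +48.8 kb (chr11:18970076-18970275, plus strand): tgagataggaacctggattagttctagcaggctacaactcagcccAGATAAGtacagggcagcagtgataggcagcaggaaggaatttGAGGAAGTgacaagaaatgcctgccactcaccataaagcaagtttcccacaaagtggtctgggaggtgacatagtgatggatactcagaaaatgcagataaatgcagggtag
Meis1 -1.5 kb (chr11:19020421-19020620, plus strand): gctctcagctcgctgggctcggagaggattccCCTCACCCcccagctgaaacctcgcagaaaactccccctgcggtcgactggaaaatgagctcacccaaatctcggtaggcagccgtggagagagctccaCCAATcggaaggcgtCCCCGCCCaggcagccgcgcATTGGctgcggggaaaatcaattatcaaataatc
Meis1 +135.3 kb (chr11:18883593-18883792, plus strand): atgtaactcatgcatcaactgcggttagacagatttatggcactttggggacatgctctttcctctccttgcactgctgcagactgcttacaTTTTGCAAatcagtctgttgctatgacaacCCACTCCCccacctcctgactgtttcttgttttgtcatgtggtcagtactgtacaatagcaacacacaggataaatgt
Meis1 -116.8 kb (chr11:19135722-19135921, plus strand): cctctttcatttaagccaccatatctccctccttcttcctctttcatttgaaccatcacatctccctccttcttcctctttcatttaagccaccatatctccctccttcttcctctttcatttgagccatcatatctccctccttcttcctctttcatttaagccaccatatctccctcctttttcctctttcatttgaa
Meis1 +204.6 kb (chr11:18814243-18814442, plus strand): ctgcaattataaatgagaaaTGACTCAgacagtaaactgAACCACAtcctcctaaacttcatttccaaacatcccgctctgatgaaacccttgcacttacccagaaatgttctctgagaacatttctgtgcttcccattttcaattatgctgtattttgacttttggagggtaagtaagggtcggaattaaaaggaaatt
Pbx3 +295.5 kb (chr2:34076439-34076638, plus strand): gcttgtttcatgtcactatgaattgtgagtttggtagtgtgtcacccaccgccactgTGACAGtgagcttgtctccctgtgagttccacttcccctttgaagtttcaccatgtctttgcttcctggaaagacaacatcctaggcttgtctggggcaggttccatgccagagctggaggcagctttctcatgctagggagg
Pbx3 +305.9 kb (chr2:34066023-34066222, plus strand): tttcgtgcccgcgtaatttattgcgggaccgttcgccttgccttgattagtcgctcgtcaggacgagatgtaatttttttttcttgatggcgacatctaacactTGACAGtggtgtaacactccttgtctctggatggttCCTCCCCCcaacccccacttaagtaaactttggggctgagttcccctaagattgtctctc
The element at Meis1 +93.9 kb held a PU.1, a GATA and a MEIS match, and that at +48.8 kb a PU.1 and a GATA match. These were the 2 GATA matches among the 61 elements (3.28%), against 2.06% of the 96190 regions beyond promoters in the series. The element at Meis1 -1.5 kb held 2 CCAAT and 2 KLF matches, and 2 or more CCAAT were found in 3.40% of regions beyond promoters and 8.83% of promoter regions. The element at -116.8 kb is a tandem repeat, in which 96.8% of the bases equalled the base 74 bp further on, while no other member exceeded 47.7% at any distance from 2 to 100 bp. Reads from such a sequence can come from other copies. A match of letters is a description and not a bound site.

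Both genes had an open promoter and a set of weaker elements in the control lists. At Meis1, 10 of the 33 elements had a peak in all 6 lists, and at Pbx3 6 of 28. The Meis1 elements comprised 18 in introns, 1 in an exon, 7 upstream of the gene and 7 downstream of it, and the Pbx3 elements comprised 14 in introns, 2 upstream and 12 downstream. The plot of regions by list shows that most of the remaining elements were weak peaks present in some lists.

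**Figure D1:**
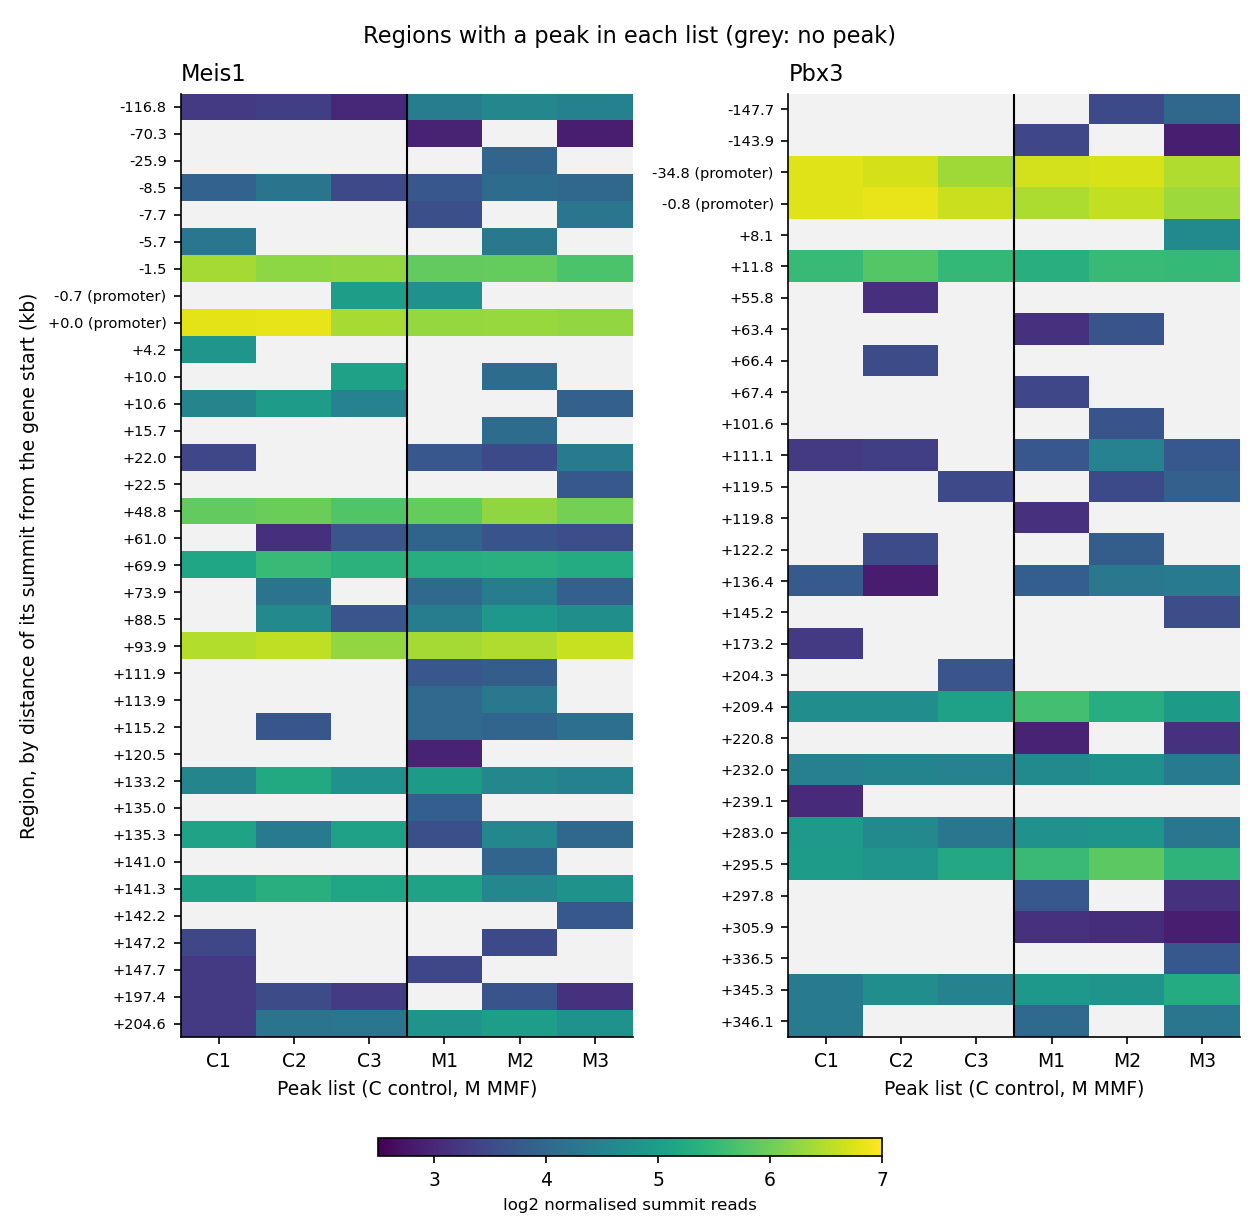
Regions at Meis1 and Pbx3 in each control (C1 to C3) and MMF (M1 to M3) list, ordered by the distance of the summit from the gene start in kb. Color gives log2 normalised summit reads and grey no peak. Of the 33 Meis1 elements 10 are filled in all 6 lists, as are 6 of the 28 Pbx3 elements, and the region at Pbx3 -34.8 kb is the promoter of Mapkap1.

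The height of a peak was expressed as normalised summit reads, the reads over the summit divided by the reads expected there from sequencing depth alone, and a value of 1 is the genome-wide background. A list held no peak below 5.49 to 6.45 normalised reads, so an absent peak means a signal under the threshold of the caller and not closed chromatin. That threshold was higher where the local background was higher. In all, 41182 regions had a peak in every list and were fitted with limma, with Benjamini-Hochberg adjustment over all of them. The median log2 difference between MMF and control was 0.32 over the 29626 shared regions beyond promoters and -0.09 over the 11556 shared promoter regions. The members were read against these medians, since 76.1% of shared regions beyond promoters were higher with MMF under this scaling. That direction depends on the scaling. Of the limma calls over all shared regions, 87.9% were higher in this fit and 25.7% with each sample centred on its median.

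The sorted cells were checked against promoter peaks of marker genes. Kit had a promoter peak in all 6 lists, Cd34 in 3 control and 2 MMF lists, Fcgr3 in 1 and 3, Fcgr2b in 2 and 3, Elane in 1 and 3, and Mpo in none. The T cell and stem cell markers Cd2, Cd3e, Cd8a and Ly6a had none, and a weak peak at Ly6g, a granulocyte marker, was in 2 control and 2 MMF lists. The lists held 58496 to 63911 peaks in control and 80893 to 86556 in MMF samples, and the reads expected over a summit were 0.620 to 0.729 in control and 0.676 to 0.909 in MMF samples.

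Meis1, a cofactor that HOXA9 needs for full leukemic activity, had its highest control signal at the promoter (chr11:19018597-19019162). The promoter held 113, 114 and 85.5 normalised reads in controls and 78.1, 79.3 and 76.9 after MMF. All 3 MMF samples lay below all 3 controls, with the third control nearest to them. The mean fell from 104 ± 16.1 to 78.1 ± 1.23 (SD, n = 3), a log2 difference of -0.40 with an SE of 0.14 (limma, adjusted p = 0.027), and the exact permutation test gave p = 0.1, the smallest that 3 samples against 3 allow. MMF was lower without overlap at 16.7% of shared promoter regions, and limma called 6.29% lower. The call was lost without control 1 (-0.34), control 2 (-0.33), MMF 1 (-0.40) or MMF 3 (-0.39).

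The nearest element, at Meis1 -1.5 kb (chr11:19020374-19020707), moved with the promoter. It held 83.7, 75.2 and 77.4 normalised reads in controls and 60.5, 60.9 and 53.2 after MMF. The 3 MMF values all lay below the controls. The mean fell from 78.8 ± 4.41 to 58.2 ± 4.33 (SD, n = 3), with a log2 difference of -0.44 and an SE of 0.16 (limma, adjusted p = 0.031). Over all shared regions beyond promoters, MMF was lower without overlap at 4.13% and limma called 1.70% lower and 28.5% higher. The summit at -1.5 kb lies 1536 bp from the start, within the wider promoter bound of 2500 bp used as an alternative setting. Of shared promoter regions, 16.7% were lower without overlap and limma called 6.29% lower. The call at -1.5 kb was lost when control 1 (-0.39), control 3 (-0.45), MMF 1 (-0.47) or MMF 3 (-0.37) was left out, and by fold enrichment the log2 difference there was 0.15.

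The local background around the Meis1 start was lower with MMF. MACS2 sets each summit against a local background, the reads in a window around the peak whose width the sources used here do not give. That window can hold the reads of the peak itself, so local background and summit reads are not independent. This background was solved for every peak and expressed as a ratio to the genome-wide background, a measure added after summit reads and fold enrichment had been seen to differ in direction at Meis1. At the Meis1 promoter it was 11.1, 10.6 and 10.9 in controls and 6.65, 6.16 and 6.25 after MMF. The groups did not overlap and replicates lay close together. The mean fell from 10.9 ± 0.252 to 6.35 ± 0.259 (SD, n = 3), 0.584 times the control value, with a log2 difference of -0.78 and an SE of 0.064 (limma over the 27424 shared regions with a mean local background of 1.5 or more, adjusted p = 9.44e-22). This was rank 57 from the lowest of the 41182 shared regions (percentile 0.138), and the local background was lower without overlap at 27.1% of shared promoter regions. The difference ranged from -0.81 to -0.75 when each sample was left out, and every such fit called it. A fall at this promoter followed from summit reads and fold enrichment that had already been seen. Its p, rank and left-out fits therefore describe its size and are no separate support. The fold enrichment of the promoter peak, which sets its summit against this local background, was 9.11, 9.58 and 6.97 in controls and 10.2, 10.7 and 10.1 after MMF. By this measure all MMF samples lay above the controls, and limma did not call the log2 difference of 0.29 (adjusted p = 0.34). Over all shared regions, 97.6% of limma calls by fold enrichment were higher with MMF.

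Local background was also lower at the element just upstream of the Meis1 start. At -1.5 kb it was 9.88, 9.81 and 9.77 in controls and 6.47, 6.20 and 6.05 after MMF, again without overlap (log2 difference -0.65, limma, adjusted p = 1.77e-16). Over all shared regions beyond promoters, the local background was lower without overlap at 6.65% and higher at 37.7%. At shared promoter regions it was lower without overlap at 27.1%. The windows of neighbouring peaks can overlap, so the values at the promoter and at -1.5 kb are not independent. At +10.6 kb, in intron 6 near the start of the noncoding gene Gm16140, the 3 control lists had a local background of 4.94, 5.29 and 5.73 and the single MMF list with a peak, that of MMF 3, had 2.11. A peak at +10.0 kb gave 6.10 in control 3 and 2.23 in MMF 2. With 1 MMF list each, neither place allows a comparison of the groups. At -8.5 kb the local background was 1.58 ± 0.0937 in control and 1.75 ± 0.0632 in MMF samples (SD, n = 3), and at +22.0 kb it was 1.48 in control 1 and 1.57, 1.42 and 1.73 in the MMF lists.

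**Figure D2:**
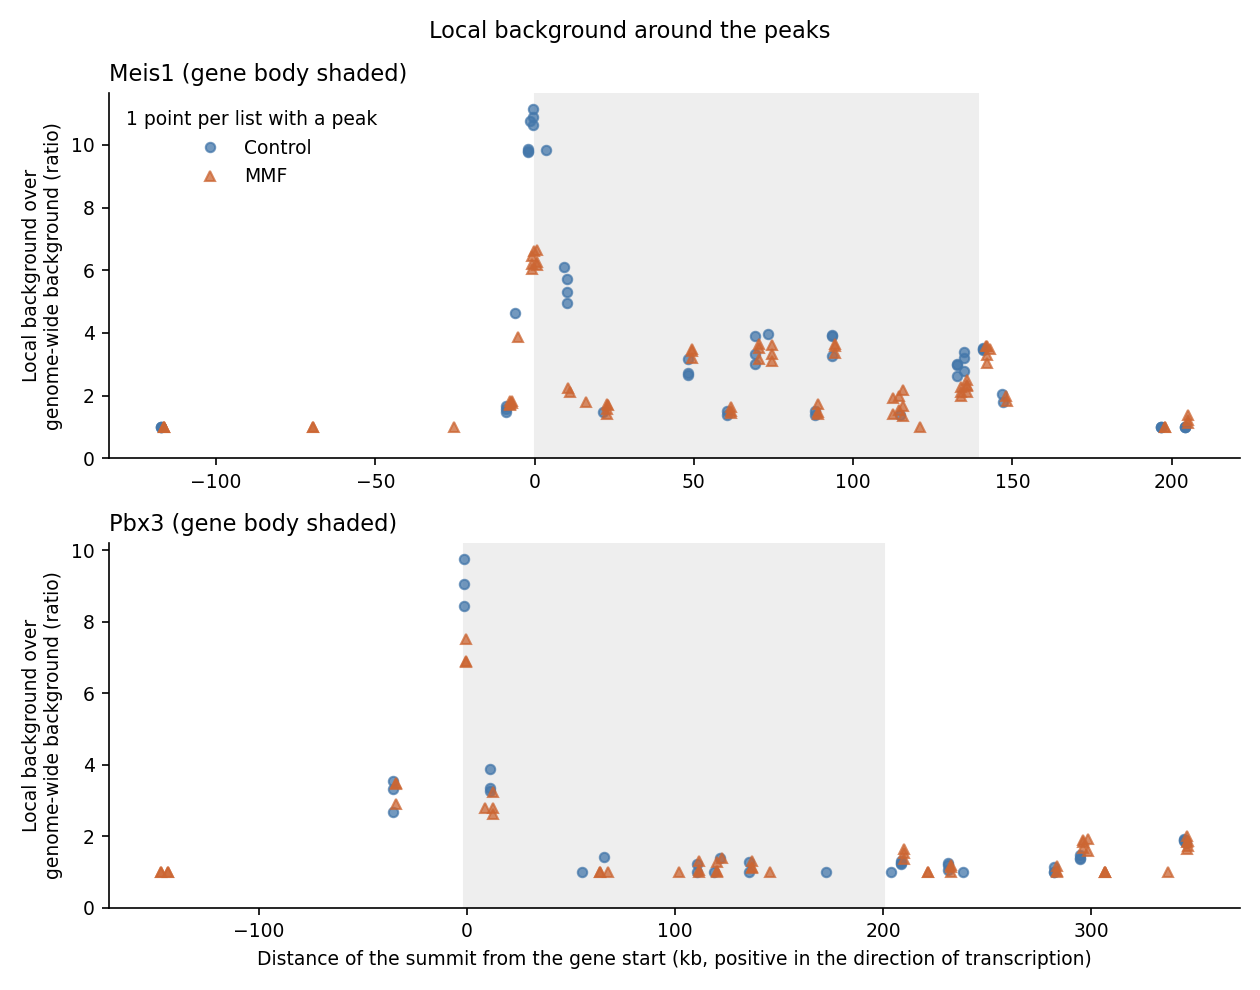
Local background of each peak as a ratio to the genome-wide background, against the distance of its summit from the gene start, for control (circles) and MMF (triangles) lists, with the groups shifted slightly sideways. At the Meis1 start the controls reach 10.6 to 11.1 and the MMF lists 6.16 to 6.65, and at +93.9 kb the groups mix.

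Few elements at Meis1 were found in fewer MMF than control lists, and those near its start are described here. The element at +10.6 kb (chr11:19007555-19008475) had 23.3, 31.8 and 22.6 normalised reads in controls and 14.8 in MMF 3, and MMF 1 and MMF 2 had no peak. All 3 controls thus lay above the single MMF value. A peak at +4.2 kb in intron 2 was found in control 1 alone, at 28.8. Its local background was 9.84 and its fold enrichment of 2.69 stood at percentile 0.120 of the list. It was thus near the limit of calling, and its absence from other lists says little. Of the 33 Meis1 elements, 3 were in fewer MMF than control lists, of which those at +10.6 and +4.2 kb are 2 and a weak peak at +197.4 kb is the third. Over all regions beyond promoters, 11.2% were in fewer and 51.6% in more MMF lists. Elements in fewer MMF lists were thus no more common at Meis1 than over the series. The elements at +10.6, +10.0 and +4.2 kb fell outside the rule for named regions and were chosen after their values had been seen.

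The strongest intronic Meis1 elements were not called different between the groups. At +93.9 kb in intron 8 (chr11:18924671-18925315), with the PU.1, GATA and MEIS letters shown above, the control samples held 89.2, 95.5 and 77.4 normalised reads and the MMF samples 83.6, 87.8 and 99.0. The groups overlapped, and the log2 difference was 0.05 with an SE of 0.14 (limma, adjusted p = 0.85). At +48.8 kb in intron 7 (chr11:18969861-18970626) the control samples held 60.4, 63.6 and 54.8 and the MMF samples 61.6, 76.5 and 66.5. They overlapped through control 2 and MMF 1 (log2 difference 0.19, SE 0.16, limma, adjusted p = 0.42). At +69.9 kb in the same intron the control samples held 35.7, 46.3 and 41.9 and the MMF samples 39.6, 41.1 and 38.4. The MMF values lay within the range of the controls (log2 difference -0.05, SE 0.20, limma, adjusted p = 0.89). Local background at +93.9 kb was 3.69 ± 0.372 in control and 3.52 ± 0.149 in MMF samples (SD, n = 3, log2 difference -0.07, limma, adjusted p = 0.59). At +48.8 kb it was 2.84 ± 0.281 and 3.37 ± 0.152, a rise of 0.25 on the log2 scale (limma, adjusted p = 0.032) that was not called without control 1 (0.20), control 3 (0.22), MMF 2 (0.23) or MMF 3 (0.24).

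Reads of the promoter divided by reads of an element in the same sample do not depend on how samples are scaled to each other, and this ratio was added after the values had been seen. The Meis1 promoter over the +93.9 kb element was 1.26, 1.20 and 1.10 in controls and 0.934, 0.903 and 0.776 after MMF. The promoter was thus the higher peak in every control and the lower one in every MMF sample. The mean ratio was 1.19 ± 0.0791 in control and 0.871 ± 0.0838 in MMF samples (SD, n = 3, log2 difference -0.45, exact permutation test, p = 0.1). Across the series, 32.2% of the 11224 shared promoters with a shared region beyond promoters within 150 kb were lower without overlap against the strongest such region, with a median log2 difference of -0.25. Against each such region in turn, 32.1% of 91767 pairs were lower without overlap, with a median of -0.32. Of the 10 shared Meis1 elements, 6 gave a lower ratio in MMF without overlap, all sharing that promoter, and those at -1.5, +133.2, +135.3 and +141.3 kb overlapped. At -1.5 kb the ratio was 1.32 ± 0.208 in control and 1.35 ± 0.0855 in MMF samples (SD, n = 3).

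**Figure D3:**
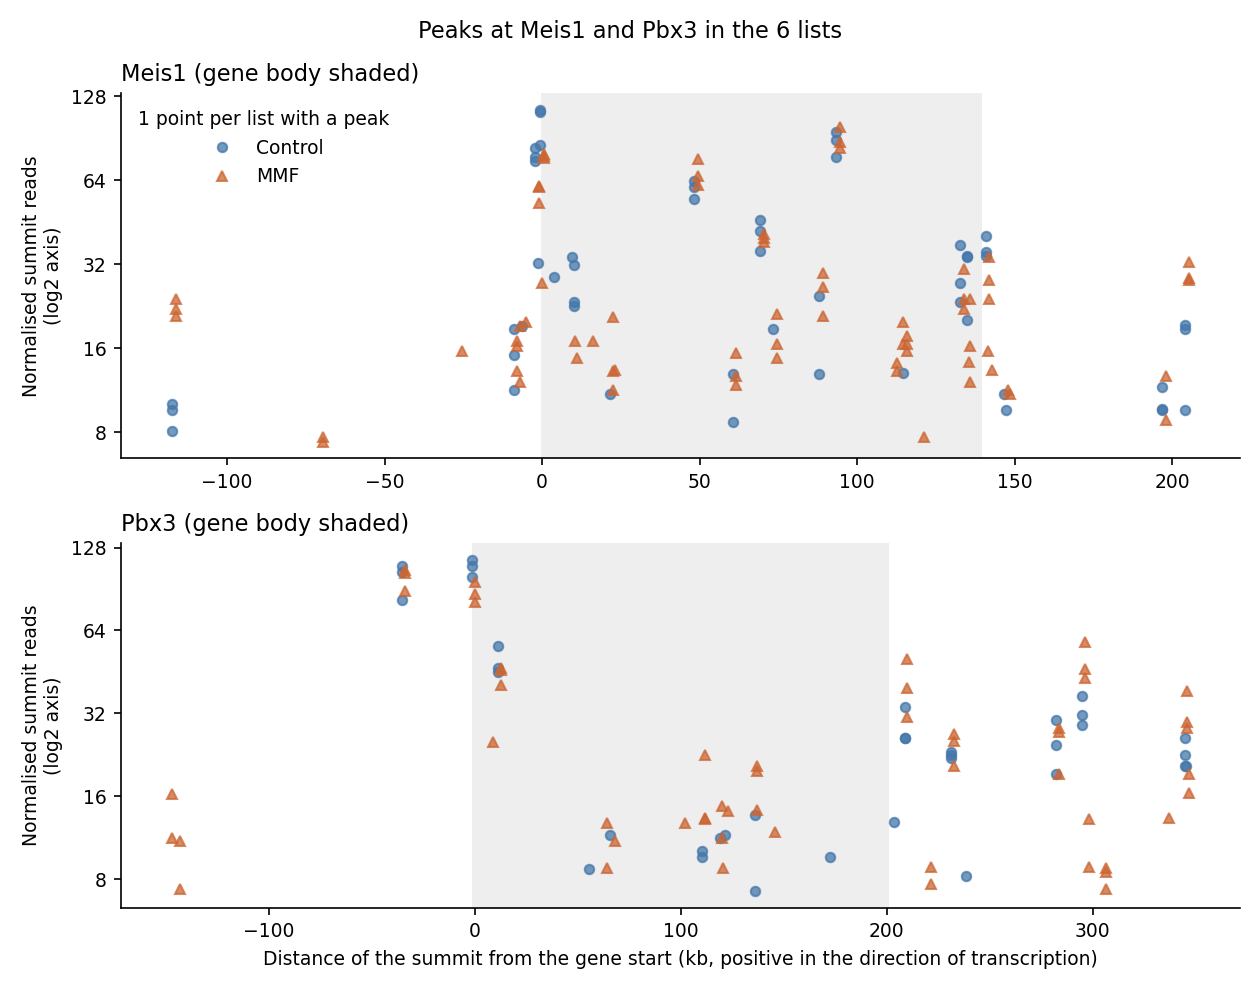
Normalised summit reads of every peak on a log2 axis against the distance of its summit from the gene start, for control (circles) and MMF (triangles) lists, with the groups shifted slightly sideways. At the Meis1 start the controls reach 85.5 to 114 and the MMF lists 76.9 to 79.3, while at +93.9 kb the ranges of 77.4 to 95.5 and 83.6 to 99.0 overlap.

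At the 3' end of Meis1 a pair of elements in introns 12 and 9 had lower local background with MMF. The element at +135.3 kb in intron 12 (chr11:18883548-18883800), with 1 C/EBP and 1 KLF match, held 34.3, 20.2 and 33.9 normalised reads in controls and 12.1, 24.1 and 16.3 after MMF. Control 2 lay among the MMF samples, so the groups overlapped. The fitted log2 difference was -0.77 with an SE of 0.28 (limma, adjusted p = 0.033), and the exact permutation test gave p = 0.2. It was not called without control 1 (-0.64), control 3 (-0.65), MMF 1 (-0.53) or MMF 3 (-0.75), nor by fold enrichment (-0.40, limma, adjusted p = 0.29) or by either rank of the peaks (limma, adjusted p = 0.31 and 0.16). Its local background was 3.38, 2.78 and 3.19 in controls and 2.33, 2.51 and 2.13 after MMF, which did not overlap (log2 difference -0.42, SE 0.11, limma, adjusted p = 0.00059). At +133.2 kb in intron 9 the local background fell from 2.87 ± 0.211 to 2.12 ± 0.150 (SD, n = 3, log2 difference -0.44, limma, adjusted p = 0.00065), while its summit reads of 23.3, 37.6 and 27.4 in control and 30.8, 24.1 and 22.2 in MMF samples overlapped. The windows behind the local background at +135.3 and +133.2 kb can overlap, so these falls may not be independent. Just past the gene, at +141.3 kb, the control samples held 34.3, 40.5 and 35.5 normalised reads and the MMF samples 34.1, 24.1 and 28.1. The groups touched without overlap there, and limma did not call the log2 difference of -0.37 (SE 0.23, adjusted p = 0.25). It was called lower with each sample centred on its median over shared regions (-0.72, limma, adjusted p = 0.010) or quantile normalised (-0.69, limma, adjusted p = 0.029). Local background at +141.3 kb was 3.49 ± 0.0369 in control and 3.30 ± 0.259 in MMF samples (SD, n = 3), which overlapped. Its log2 difference of -0.08 was not called (limma, adjusted p = 0.49).

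Among the shared Meis1 elements 2 were called higher, both outside the gene. The element at -116.8 kb (chr11:19135632-19135961), the tandem repeat shown above, held 9.60, 10.1 and 8.06 normalised reads in controls and 20.9, 24.1 and 22.2 after MMF. The groups stood apart, and the counts behind them were small, with 5 to 7 reads over the summit in control and 15 to 19 in MMF samples. The log2 difference was 1.28 with an SE of 0.29 (limma, adjusted p = 0.00057), and it was called in each fit that left out a sample. Of the bases around the summit, 77.0% are masked as repeats in the reference, and the local background was at the genome-wide level in all 6 lists. The element at +204.6 kb, beyond the 3' end, held 9.60, 18.8 and 19.3 in controls and 28.6, 32.6 and 28.1 after MMF. No control reached the MMF values (log2 difference 0.97, SE 0.28, limma, adjusted p = 0.0063), and without control 1 the difference was 0.64 and was not called. It was not called centred (0.61, limma, adjusted p = 0.077), quantile normalised (0.59, limma, adjusted p = 0.14) or by rank of fold enrichment (limma, adjusted p = 0.081). MMF was higher without overlap at 37.5% of shared regions beyond promoters.

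As a set, the shared Meis1 elements had a lower median difference than the shared regions beyond promoters of the series. Their median log2 difference in summit reads was -0.00080 over 10 elements, 5 of them above 0, against a median of 0.32 and 76.1% above 0 over all shared regions beyond promoters. Summed over the 10 elements, normalised reads were 403 ± 20.9 in control and 396 ± 14.5 in MMF samples (SD, n = 3, exact permutation test, p = 0.6). Level moves with this comparison, since the median over all shared regions went from 0.37 in the second decile of mean level to -0.13 in the highest, and the +93.9 kb element, at percentile 87.2 of level, lay in the decile with a median of -0.03. Its part in the difference of the medians was not tested. By limma 2 of the 10 were higher, against 28.5% of all shared regions beyond promoters, and 2 lower, against 1.70%. The lower ones were those at -1.5 and +135.3 kb, and 6.29% of shared promoter regions were called lower.

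**Figure D4:**
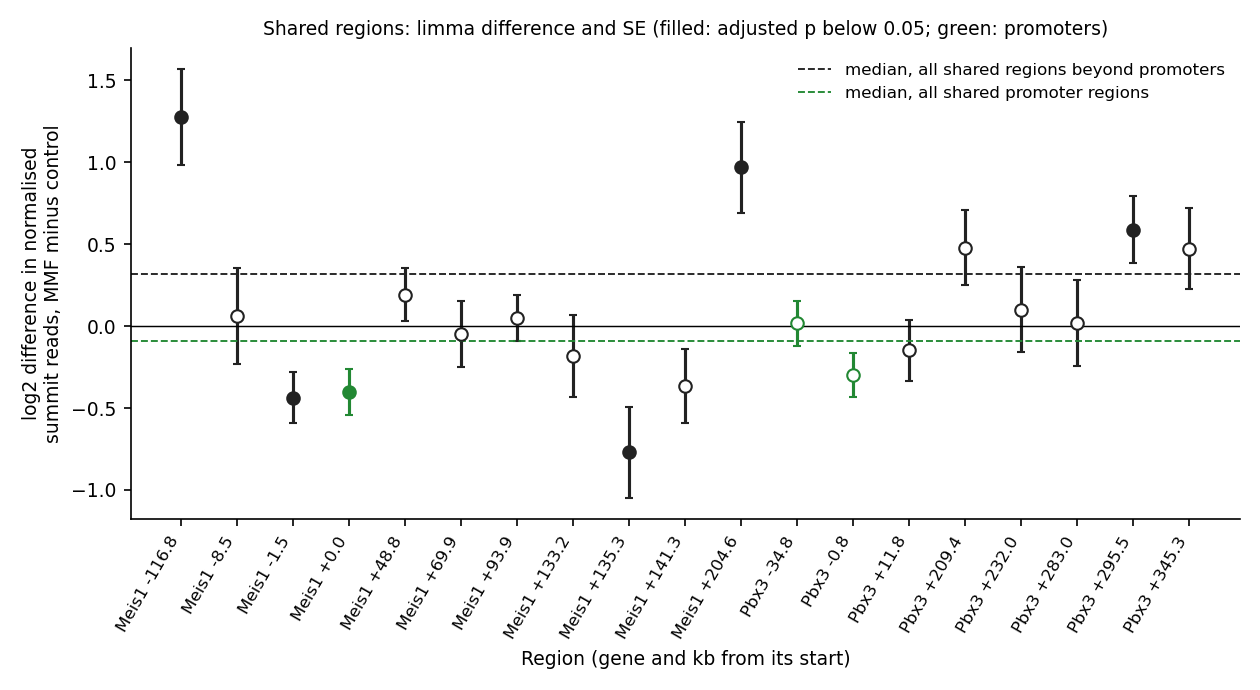
Log2 difference in normalised summit reads (MMF minus control) with its limma SE for each shared region of Meis1 and Pbx3, ordered by gene and distance from the start, with filled points for adjusted p below 0.05 and green for promoters. The points run from -0.77 at Meis1 +135.3 kb to 1.28 at Meis1 -116.8 kb, around dashed medians of 0.32 beyond promoters and -0.09 at promoters.

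Pbx3, a PBX protein that pairs with HOXA9 and MEIS1 on DNA, had its highest signal at its own promoter (chr2:34371717-34373386). The promoter held 110, 116 and 100 normalised reads in controls and 86.9, 96.3 and 81.3 after MMF. The MMF samples lay below the controls. The log2 difference was -0.30 with an SE of 0.13, which limma did not call (adjusted p = 0.092). Its local background was 8.44, 9.76 and 9.05 in controls and 6.91, 7.52 and 6.87 after MMF, which did not overlap. This fell by 0.35 on the log2 scale (SE 0.065, limma, adjusted p = 2.43e-06), and every fit that left out a sample called it, with differences from -0.41 to -0.30. Among all shared regions the difference stood at percentile 2.64, against 0.138 for the Meis1 promoter.

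Close to the start, Pbx3 had 1 shared intronic element, at +11.8 kb in intron 2 (chr2:34359837-34360711). It held 46.7, 56.4 and 45.1 normalised reads in controls and 40.7, 46.7 and 45.8 after MMF, which overlapped (log2 difference -0.15, SE 0.19, limma, adjusted p = 0.61). Its local background fell from 3.51 ± 0.330 to 2.89 ± 0.315 (SD, n = 3, log2 difference -0.28, limma, adjusted p = 0.015), and the call was lost without control 2 (-0.21) or MMF 1 (-0.21). The remaining 13 intronic elements were weak and absent from at least 1 list, with no more than 25.1 normalised reads in any list.

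The other shared Pbx3 elements lay downstream of the gene, 3 of them within the noncoding gene C230014O12Rik. At +283.0, +295.5 and +345.3 kb, and at the gained +305.9 kb, the nearest protein-coding start was that of Mvb12b and not of Pbx3. The summit at +295.5 kb lay 188593 bp from it, against 295505 bp from the Pbx3 start. Which gene these elements serve was not tested. The element at +295.5 kb (chr2:34076119-34076916), with 1 MEIS match, held 31.6, 28.9 and 37.1 normalised reads in controls and 46.2, 58.1 and 42.9 after MMF. All 3 MMF values exceeded the controls (log2 difference 0.59, SE 0.21, limma, adjusted p = 0.028), and the call was lost without control 1 (0.57), control 2 (0.51), MMF 1 (0.63) or MMF 2 (0.46). The difference was not called centred (0.23, limma, adjusted p = 0.39), quantile normalised (0.30, limma, adjusted p = 0.33) or by either rank (limma, adjusted p = 0.080 and 0.060). Its local background was 1.42 ± 0.0589 in control and 1.80 ± 0.124 in MMF samples (SD, n = 3, log2 difference 0.35, limma, adjusted p = 0.032, not called without control 2 (0.32), control 3 (0.34), MMF 1 (0.31) or MMF 2 (0.33)). The control mean lay below the 1.5 that this fit required of a region's mean, so the region entered it only through the MMF samples. That call is therefore no support for a rise. At +345.3 kb the control samples held 20.6, 26.0 and 22.6 and the MMF samples 29.7, 28.3 and 38.4, apart but not called (log2 difference 0.47, SE 0.25, limma, adjusted p = 0.16). At +209.4 kb, between genes, the control samples held 26.1, 26.0 and 33.9 and the MMF samples 50.6, 39.7 and 31.0. MMF 3 lay among the controls there, and limma did not call the log2 difference of 0.48 (SE 0.23, adjusted p = 0.12). The elements at +283.0 and +232.0 kb overlapped between groups, with log2 differences of 0.02 and 0.10.

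The median log2 difference of the 6 shared Pbx3 elements was 0.29, with 5 above 0, close to the 0.32 of all shared regions beyond promoters. Summed over them, normalised reads were 181 ± 4.07 in control and 215 ± 15.5 in MMF samples (SD, n = 3, exact permutation test, p = 0.1), without overlap. The ratio of the Pbx3 promoter to its strongest element, at +11.8 kb, overlapped at 2.21 ± 0.151 in control and 1.99 ± 0.191 in MMF samples (SD, n = 3, log2 difference -0.15, exact permutation test, p = 0.3). Of the 6 shared Pbx3 elements, 4 gave a lower ratio in MMF without overlap, all sharing that promoter. Across the series, 32.1% of 91767 such pairs were lower without overlap, with a median log2 difference of -0.32. The largest difference at Pbx3 was against +295.5 kb, where the ratio was 3.39 ± 0.657 in control and 1.81 ± 0.133 in MMF samples (SD, n = 3). The promoter of Mapkap1, the other protein-coding gene of the window, held 110, 104 and 82.2 in controls and 103, 106 and 88.7 after MMF, which overlapped.

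By presence of peaks, 1 element was gained, in all 3 MMF lists and no control list, and none was lost. It lay at Pbx3 +305.9 kb (chr2:34065980-34066210) within C230014O12Rik, with 8.80, 8.50 and 7.39 normalised reads after MMF. These values were near the lowest a list could call, and the window holds 1 MEIS and 1 KLF match. Over all regions beyond promoters 6.75% were gained and 0.191% lost. With it included, 11 elements at Meis1 and 12 at Pbx3 had peaks in MMF lists alone, 33.3% and 42.9% of the elements, against 34.4% of all regions beyond promoters. In control lists alone there were 1 and 5, which is 3.03% and 17.9%, against 7.46%. Both genes had 16 elements in more MMF than control lists, 48.5% of those at Meis1 and 57.1% at Pbx3, against 51.6% of all regions beyond promoters.

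The MMF lists held more peaks in both windows. At Meis1 the control lists held 17, 16 and 16 element peaks and the MMF lists 22, 24 and 21, and at Pbx3 11, 11 and 9 and 17, 16 and 19. The groups did not overlap at either gene (exact permutation test, p = 0.1 for each). Because the MMF lists were longer, the share of the list was compared as well. At Meis1 the share in MMF lists was 0.994 times that in control lists and the groups overlapped (exact permutation test, p = 0.9), and at Pbx3 it was 1.23 times, without overlap (p = 0.1, exact permutation test). With the 58496 peaks of lowest p from every list, the difference between MMF and control lists was -1.67 peaks at Meis1 and 1.33 at Pbx3.

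The letters of the MEIS motif, TGACAG, were found in 17 of the 61 elements (27.9%), against 16.8% of regions beyond promoters and 17.8% of gained regions in the series. KLF letters were found in 21 of the 61 (34.4%), 16 of them at Meis1, against 20.0%, and this motif overlaps runs of C such as those at +141.3 kb. C/EBP letters were in 9 elements, 7 of them at Pbx3, which is 14.8% of the 61 against 16.2%. PU.1 letters were in 6 (9.84%, against 9.04%), AP-1 in 11 (18.0%, against 17.9%), RUNX in 6 (9.84%, against 12.0%), PBX-HOX in 2 (3.28%, against 0.969%) and ETS in 1 (1.64%, against 0.586%). CTCF, found in 6.62% of regions beyond promoters, and NF-Y, in 2.85%, were not matched in any element window, and CCAAT was found in 15 (24.6%, against 22.6%). Elements of 1 gene are not independent samples, and these shares are descriptions.

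The promoters of TALE and partner genes were read in the same way. Meis1 had the largest fall in local background of the 8 described here with a promoter region in all 6 lists. Values at Meis1 had prompted this measure, so its place among them is no separate finding. Each gene is represented by 1 promoter region. Meis1 and Hoxa9 had 2 such regions, Hoxa10 had 3 and Tgif1 had 5, and the others are not compared here. At Hoxa9, the HOX partner of both proteins, local background was 13.9, 14.0 and 14.7 in controls and 9.44, 9.92 and 9.38 after MMF, which did not overlap. The log2 difference was -0.57 (limma, adjusted p = 1.75e-16) with -0.36 in summit reads (adjusted p = 0.11, limma). At Hoxa7 local background fell by 0.61 on the log2 scale and summit reads by 0.50 (limma, adjusted p = 1.25e-17 and 0.042), and at Hoxa10 local background fell by 0.43 (limma, adjusted p = 0.00040). Pknox1, a TALE relative of Meis1, had a fall of 0.24 in local background (limma, adjusted p = 0.00028), and Pbx4 a difference of 0.09 that was not called (limma, adjusted p = 0.36). At Tgif1, a TALE repressor, local background rose by 0.36 (limma, adjusted p = 9.32e-08) and summit reads differed by 0.40 (limma, adjusted p = 0.057). Meis2, Meis3, Pbx2, Pknox2 and Tgif2 had no promoter region in all 6 lists. Limma called local background lower at 13.4% and higher at 30.2% of the regions fitted.

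**Figure D5:**
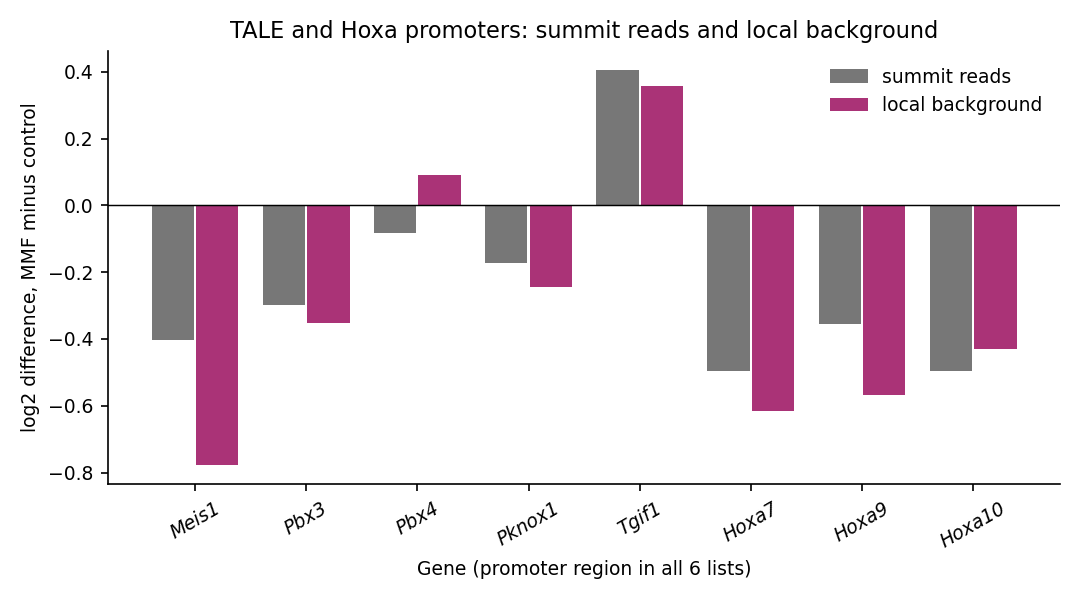
Log2 difference (MMF minus control, bars from 0) in summit reads (grey) and local background (purple) at 8 TALE and Hoxa promoters with a region in all 6 lists. Meis1 has the lowest local background difference, -0.78, and Tgif1 the highest, 0.36.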

How the data were processed

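The series holds 6 ATAC-seq libraries of L-GMPs, 3 control and 3 with MMF by their labels. Alignment to mm10 (GRCm38) by the authors used Bowtie2, MACS2 gave 1 peak list for each sample, and the submitters' processing notes also name FastQC and Trim Galore, with options not given in the sources used here. The deposited lists give for each peak a fold enrichment, a ratio of summit reads to local background, the −log10 of its p and q, and a score, which was not used. Peaks on chromosomes 1 to 19, X and Y were kept (at most 0.270% of a list lay elsewhere) and merged into 112852 regions, present in a list at an overlap of 1 bp.

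The whole reads over the summit and the local background were solved from fold enrichment, (reads + 1) / (background + 1), and the Poisson p, with a relative tolerance of 0.002 on p, which succeeded for 99.9797% or more of each list. Reads were divided by the lowest background, which is proportional to depth. The median summit held 14 to 19 reads, which limits the precision of weak peaks. Local background below 1.01 times the genome-wide value was set to it.

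Log2 values of regions in all 6 lists were fitted with limma 3.58.1 (lmFit, eBayes with trend) in R 4.3.3, with Benjamini-Hochberg adjustment and a threshold of 0.05. Single values and peaks per list were compared by exact permutation tests, two-sided. On simulated data with 200 of 41182 regions shifted, the fit called 0, 43 and 181 of the 200 at log2 shifts of 0.5, 1 and 2, with 0, 0 and 9 other calls. In the data 8912 regions were called higher and 1232 lower. The adjustment is stricter with few shifted regions, so these shares do not carry over to the data. Named regions were the promoters, gained or lost elements, the 5 strongest shared elements of each gene, the 3 with the largest rise and fall, and any called. Motifs were read with pysam 0.24.0 in 200 bp around summits. Introns were numbered by the 13-exon Meis1 and 9-exon Pbx3 transcripts of GENCODE M21. Some genes of the marker and partner lists are not reported here. The members, lists and motifs were chosen with earlier results of these data known. Same-numbered samples did not deviate together (correlations 0.00069, 0.0032 and -0.00086), so replicate numbers were not taken to pair samples. Reads were not analysed here, and no sample's list was a copy of another (at most 681 identical intervals).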

Additional observations from a re-analysis of the deposited data

How the results depend on the processing

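Absent peaks lie under a calling threshold and have no value, shared regions rest on few reads when weak, and peaks of repeats may hold reads of other copies. Differences are relative to the scaling: centring each sample on its median over shared regions shifts every difference by 0.35 on the log2 scale, the shift of the sample medians. No alternative moved the call or direction of the local background at either promoter, nor the call at Meis1 -116.8 kb apart from the fit of regions with at least 30 mean summit reads, which leaves it out. Local background fits were chosen after the data had been seen.

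Fold enrichment and ranks divide by or depend on the local background, which fell at the promoters, and they turned the direction of the Meis1 promoter (0.29 by log2 fold enrichment, 0.26 by rank of fold enrichment and 0.0020 by rank of −log10 p), of Meis1 -1.5 kb (0.15 and 0.091 by the first and second), of Meis1 +133.2 kb (0.15, 0.13 and 0.017), of Pbx3 +11.8 kb (0.095, 0.065 and 0.011) and, by fold enrichment, of the Pbx3 promoter (0.026). Centring turned Meis1 +93.9 kb (-0.31), Meis1 +48.8 kb (-0.16), Meis1 -8.5 kb (-0.29, quantile normalisation -0.30) and Pbx3 +283.0 kb (-0.33, quantile -0.36). It also turned Pbx3 +232.0 kb (-0.26, quantile -0.28) and the Mapkap1 promoter (-0.34). In local background it turned Meis1 +69.9 kb (-0.10) and the Mapkap1 promoter (-0.076). With centring, the summit reads of the Pbx3 promoter (-0.65) and of the Mapkap1 promoter (-0.34) were called lower.

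The median of the shared Meis1 elements was -0.36 centred, -0.32 quantile normalised, 0.093 by rank of fold enrichment and 0.074 by rank of −log10 p. That of the Pbx3 elements was -0.068 centred, -0.081 quantile normalised and -0.15 with at least 30 mean reads. Meis1 elements called higher numbered 1 centred, quantile normalised or by rank of fold enrichment and 0 with at least 30 reads. Those called lower numbered 3 centred or quantile normalised, 0 by fold enrichment, either rank or without trend and 1 with at least 30 reads. Pbx3 elements called higher numbered 0 centred, quantile normalised, by either rank or with at least 30 reads, and 1 was called lower when centred. Over all shared regions, 8912 were called higher and 1232 lower, against 3590 and 10398 centred, 3967 and 2639 quantile normalised, 5501 and 133 by fold enrichment, 3186 and 97 by rank of fold enrichment, 2912 higher with at least 30 reads, 119 lower by rank of −log10 p and 400 lower without trend. Higher calls were 87.9% of the calls in the fit reported, 25.7% centred, 60.1% quantile normalised, 76.1% with at least 30 reads, 87.7% with a replicate block and 95.0% to 98.2% by fold enrichment, either rank or without trend.

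By presence, equal list length gave 1 lost Meis1 element, no gained Pbx3 element (0), and differences of -1.67 and 1.33 peaks per list at Meis1 and Pbx3 in place of 6 and 7, with 1929 regions gained and 1028 lost beyond promoters in place of 6493 and 184. At 2 of 3 against 0 of 3 lists, 4 Meis1 and 6 Pbx3 elements were gained, with 14634 gained and 1029 lost over all. A flank of 50 kb left 0 gained at Pbx3 and a difference of 2.67 peaks per list.

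When each sample was left out in turn, differences ranged from -0.54 to -0.33 at the Meis1 promoter, -0.34 to 0.0081 at Meis1 +133.2 kb, -0.037 to 0.11 at +93.9 kb, -0.15 to 0.037 at +69.9 kb, -0.13 to 0.24 at -8.5 kb, -0.14 to 0.20 at Pbx3 +283.0 kb and -0.11 to 0.099 at the Mapkap1 promoter. The local background ranged from -0.065 to 0.13 at Meis1 +69.9 kb, -0.12 to 0.015 at Pbx3 +345.3 kb and -0.067 to 0.14 at the Mapkap1 promoter. The Pbx3 element median ranged from 0.18 to 0.29. Counts ranged from 1 to 2 for Meis1 elements called higher, 0 to 2 called lower, 0 to 1 for Pbx3 elements called higher, 0 to 2 gained and 0 to 1 lost at Meis1, 1 to 4 gained at Pbx3, 763 to 1100 shared regions called lower, and 7948 to 10061 gained and 312 to 520 lost beyond promoters. Without MMF 3, the Meis1 +10.6 kb element counts as lost.

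With the replicate number as a block, the promoter differences stayed at -0.40 (limma, adjusted p = 0.026) for Meis1 and -0.30 (adjusted p = 0.087, limma) for Pbx3, 8834 shared regions were called higher and 1236 lower, and no other call at these genes changed. Permuted within pairs, the differences of 6 and 7 peaks per list gave an exact p of 0.25, the smallest that 3 pairs allow. Correlations of deviations between control and MMF samples ran from -0.0041 to 0.0034, the highest for control 3 and MMF 1, so no pair stood out.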
